A study of Mus musculus with 12 samples.

Results

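The BCL2 family decides at the mitochondrial outer membrane whether a cell undergoes apoptosis, and 10 of its members were followed in mouse pancreatic neuroendocrine tumors (PanNETs). The members were listed by gene symbol with no threshold on measured values, though earlier results of these data were known, and each symbol matched 1 of the 38924 Ensembl genes that were counted. They comprised 4 anti-apoptotic genes (*Bcl2*, *Bcl2l1*, *Bcl2l2* and *Mcl1*), 2 effectors (*Bax* and *Bak1*) and 4 genes of BH3-only proteins (*Bcl2l11*, *Bbc3*, *Pmaip1* and *Bid*). All 10 passed the filter on low counts, as did 16645 genes in all.

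RNA sequencing covered 12 tumors of RIP1Tag2 mice on the C57Bl6 strain, in which the rat insulin promoter drives the SV40 large T antigen in pancreatic beta cells. The 4 control tumors came from mice given saline, 4 from mice given sunitinib, which blocks the receptor kinases of VEGF and PDGF, and 4 from mice given sunitinib together with the mTOR inhibitor rapamycin (R+S). All groups share the transgene, the strain and the schedule, with dosing from an age of 15.5 weeks over 4 days. The labels do not say which tumors came from the same mouse. All 4 control tumors share a label prefix. Sunitinib tumors 5, 6 and 8 share another, and R+S tumors 5 and 7 share yet another. Whether a prefix names a mouse is not stated. The p-values thus measure only the spread between these tumors. That spread may lie within mice, in part for the treated groups and wholly for the controls.

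The anti-apoptotic proteins hold the effectors BAX and BAK in check, and once free of that restraint the effectors form pores through which cytochrome c leaves the mitochondrion. BH3-only proteins are the sensors of the family: they are raised or activated by stress or loss of growth factor signals, and they bind the anti-apoptotic proteins or the effectors. T antigen inactivates p53 and RB, and BCL-xL, the product of *Bcl2l1*, is known as a survival factor in tumors of this model. Much of the family's control lies in protein stability, phosphorylation and binding, which counts of mRNA do not measure.

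Between 31872342 and 44215054 reads per tumor fell on genes. Values are reads relative to library size after TMM scaling (normalized CPM), and levels of different genes are set side by side only per kilobase of exon. Beta cell markers were detected in every tumor. However, sunitinib tumor 6 held a summed 4656 normalized CPM of 10 such markers against at least 39676 in the control tumors. Of that sum, 2849 came from *Chga*, which lay within its control range. Every other marker of the list lay below its control range in tumor 6, with *Pdx1* at 4.17 against at least 313. Across genes the log2 CPM of tumor 6 correlated with those of its group at 0.872 to 0.895, against 0.957 or more in every other pair within a group. Markers of other cells moved with treatment: of 28 genes of acinar cells, the enzyme-secreting cells of the pancreas, 27 were higher in both treated groups, with sums of 41.9 to 147 normalized CPM in control, 13903 to 49691 in sunitinib and 3692 to 20060 in R+S tumors. Of 10 endothelial markers, 9 were lower in both treated groups, with sums of 610 to 802, 57.8 to 97.2 and 129 to 165. Short genes were favored unequally among tumors: the median log2 level of protein-coding genes of at most 2771 exonic bases, relative to those of at least 6803 (the length skew), was -0.24 to 0.17 in controls, -0.33 to -0.17 in R+S, and -0.13, 0.08, 0.24 and 0.79 in sunitinib tumors 5, 6, 8 and 12. The part of these differences in the results below was not tested, except where a value says otherwise. In whole tumors, fewer cells of a type and less RNA per cell cannot be told apart.

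Per kilobase, *Bax* was the most abundant member in control tumors at 51.3 ± 5.56 normalized CPM (SD, n = 4), followed by *Mcl1* at 34.6 ± 1.32 and *Bcl2l2* at 19.6 ± 1.54, each apart from its neighbor in every tumor. *Bcl2l11*, *Bcl2l1* and *Bak1* followed at 9.87 ± 1.80, 9.19 ± 0.93 and 7.64 ± 0.77, with ranges that overlapped from one to the next. *Bbc3* stood alone at 4.43 ± 0.50. *Bid*, *Bcl2* and *Pmaip1*, at 1.98 ± 0.48, 1.49 ± 0.12 and 1.19 ± 0.43, closed the order and overlapped. The first 3 kept their order in both treated groups, although in sunitinib *Bax* overlapped *Mcl1*, and *Bcl2l2* overlapped *Bcl2l1*. Within R+S the middle of the order opened up, since *Bcl2l11* at 13.0 ± 0.79 lay above *Bcl2l1* at 8.98 ± 0.59 in every tumor. *Bcl2l11* is among the long genes, which the negative length skew of every R+S tumor favors. It was not called in R+S against control (adjusted p = 0.254 by edgeR). *Bcl2*, the gene that names the family, was thus among the least abundant members in these tumors.

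**Figure D1:**
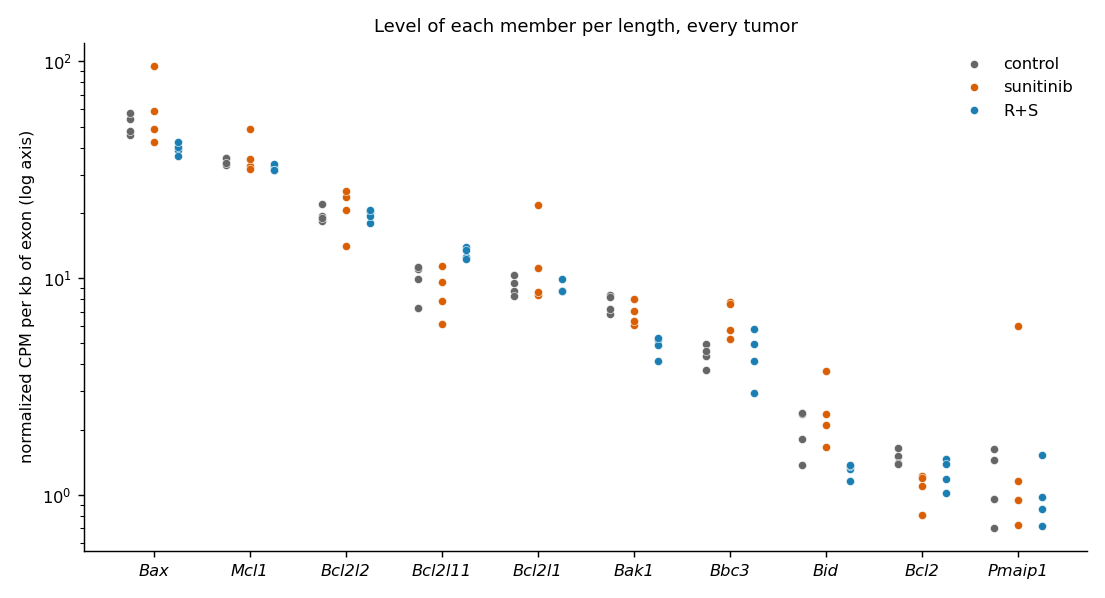
Level of the 10 members in every tumor, in normalized CPM per kilobase of exon on a log axis, ordered by the control mean. Each point is 1 tumor. In control and R+S tumors *Bax*, *Mcl1* and *Bcl2l2* lie above the rest, while in sunitinib tumor 6 *Bcl2l1* lies above *Bcl2l2*. Sunitinib tumors scatter more widely than control or R+S tumors for *Bcl2l1*, *Bax* and *Pmaip1*.

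The first question was what sunitinib alone did to the family. For sunitinib against control, 0 of the 10 members were called, that is, reached an adjusted p under 0.05 by edgeR's quasi-likelihood test, beside 4.48% of all genes tested (1.93% higher and 2.55% lower). At an unadjusted p under 0.05 there were 2 members, beside 19.5% of all genes, and DESeq2 called 0 members beside 7.9%. For 2 members the groups did not overlap, beside 10.9% of all genes. These were *Bbc3*, higher, as 5.17% of all genes were, and *Bcl2*, lower, as 5.76% were. The median log2 fold change of the members was 0.18, against 0.03 over all genes tested.

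The second question was what R+S did. Against control, 1 member was called, *Bak1*, beside 4.16% of all genes (1.55% higher and 2.61% lower). At an unadjusted p under 0.05 there were 2 members beside 20.1%, and DESeq2 called *Bak1* beside 9.13%. The groups did not overlap for 4 members beside 23.5% of all genes, with *Bax*, *Bak1* and *Bid* lower (11.9% of all genes) and *Bcl2l11* higher (11.6%). The members' median log2 fold change was -0.16, against 0.01 over all genes. Against sunitinib alone, 0 members were called by edgeR beside 7.21% of all genes (2.63% higher and 4.58% lower), 5 had an unadjusted p under 0.05 beside 30.4%, and DESeq2 called 4 (*Bak1*, *Bax*, *Bid* and *Bcl2l11*) beside 17.3%. For 3 of them the groups did not overlap, beside 18.6% of all genes, with *Bak1* and *Bid* lower (9.73%) and *Bcl2l11* higher (8.9%). The median log2 fold change of the members was -0.48 here, against -0.02. The 1200 genes called between R+S and sunitinib fell to 1, 0 and 1 without R+S tumor 4, 5 or 7. Both comparisons with control share the 4 control tumors, and both comparisons of R+S share its 4 tumors.

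**Figure D2:**
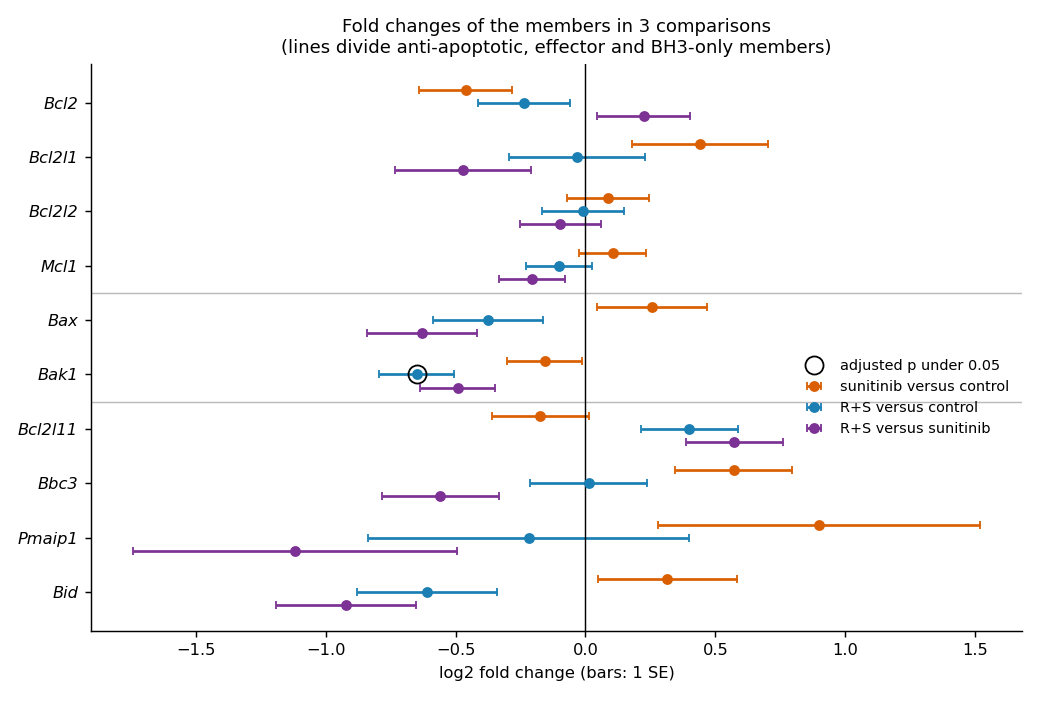
Log2 fold change of each member, with bars of 1 SE, for sunitinib against control, R+S against control and R+S against sunitinib (4 tumors a group). The ring marks the 1 value with an adjusted p under 0.05, *Bak1* in R+S against control. Between R+S and sunitinib, 8 members lie below 0, and *Bcl2* and *Bcl2l11* above it.

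*Bak1* encodes BAK, the effector that sits constitutively in the mitochondrial outer membrane, and lies at chr17:27019810-27029009 on the minus strand of GRCm38. Control tumors 1 to 4 had 16.4, 20.2, 19.7 and 17.3 normalized CPM, and sunitinib tumors 5, 6, 8 and 12 had 16.9, 14.7, 15.2 and 19.2. R+S tumors 4, 5, 7 and 10 had 12.4, 9.95, 11.8 and 12.7, on 394 to 513 reads. All 4 R+S tumors lay below all other tumors, while sunitinib and control overlapped. *Bak1* fell in R+S against control by 0.65 on the log2 scale (SE 0.14, adjusted p = 0.0298 with Benjamini-Hochberg adjustment in edgeR), to 0.637 of the control level. Against sunitinib the log2 fold change was -0.49 (SE 0.14, adjusted p = 0.0584), and for sunitinib against control -0.16 (SE 0.14, adjusted p = 0.577). The exact permutation p was 0.0286 for R+S against either group, the smallest that 70 arrangements of 4 against 4 tumors can give.

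The size of the *Bak1* difference from control held when tumors were left out, at -0.70 to -0.58, but its adjusted p rose to 0.0605 to 0.11 without control tumor 2, 3 or 4 or without R+S tumor 4, 5 or 7. DESeq2 gave an adjusted p of 0.000232. With the length skew of each tumor in the model the log2 fold change was -0.58 (adjusted p = 0.0455). With the acinar marker level in the model, which itself separates the treated tumors from the control tumors, it was 0.02 and 0 genes were called, so that acinar content and treatment cannot be told apart in this comparison. On the opposite strand *Ggnbp1* covers 25.5% of the exonic bases of *Bak1*. *Ggnbp1* ran the other way in R+S against control, at 11.3 to 14.3 normalized CPM in control and 14.95 to 23.6 in R+S tumors. In sunitinib tumors it also lay above control, at 16.0 to 26.4, although *Bak1* overlapped control there.

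The 3 genes that followed *Bak1* most closely over the 12 tumors, by the SD of the difference in log2 CPM among 10639 genes with a mean log2 CPM of at least 3, were *Arl6ip1* (SD 0.095), *Actl6a* (0.119) and *Vbp1* (0.122), against a median SD of 0.449. Their log2 fold changes in R+S against control were -0.55, -0.56 and -0.51, with adjusted p of 0.0426, 0.0095 and 0.0191 by edgeR. They were taken for their likeness to *Bak1*, so these values are a description.

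*Bax* encodes the effector that moves from the cytosol to the mitochondrion, and lies at chr7:45461697-45466898 on the minus strand. In control tumors 1 to 4 it had 85.2, 90.9, 72.3 and 74.9 normalized CPM. Sunitinib tumors 5, 6, 8 and 12 had 76.7, 66.5, 92.5 and 150, and R+S tumors 4, 5, 7 and 10 had 61.2, 57.6, 63.7 and 66.9. The R+S tumors lay below every control tumor and overlapped the sunitinib tumors by 1 tumor, tumor 6. For R+S the log2 fold change was -0.37 (SE 0.21, adjusted p = 0.347) against control and -0.63 (SE 0.21, adjusted p = 0.0814) against sunitinib. Sunitinib and control overlapped, with a log2 fold change of 0.26 (SE 0.21, adjusted p = 0.534) that turned to -0.04 without tumor 12.

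At 1576 exonic bases *Bax* is the shortest member, and tumor 12 was the tumor in which short genes were most favored. Without tumor 12 the difference between R+S and sunitinib was -0.33 (adjusted p = 0.136), and with length skew in the model -0.04 (adjusted p = 0.905). Against control, the corresponding value with length skew was -0.10 (adjusted p = 0.70). A fit of the 8 control and R+S tumors alone called *Bax* lower (log2 fold change -0.38, adjusted p = 0.0286), as did the fit without sunitinib tumors 6 and 12 (-0.37, adjusted p = 0.0359). The predicted gene *Gm45808* covers 12.2% of the exonic bases of *Bax* on the same strand.

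Summed per kilobase, the 2 effectors reached 54.0 to 66.1 normalized CPM in the controls against 40.7 to 47.7 in R+S, which did not overlap. Of all genes taken singly, 23.5% did not overlap in this comparison. *Bok*, an effector relative of *Bax* outside the member list, is not in the sum. The sums in sunitinib tumors 5, 6, 8 and 12 were 55.7, 48.3, 65.0 and 103. *Bax* provides most of that sum in every tumor.

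**Figure D3:**
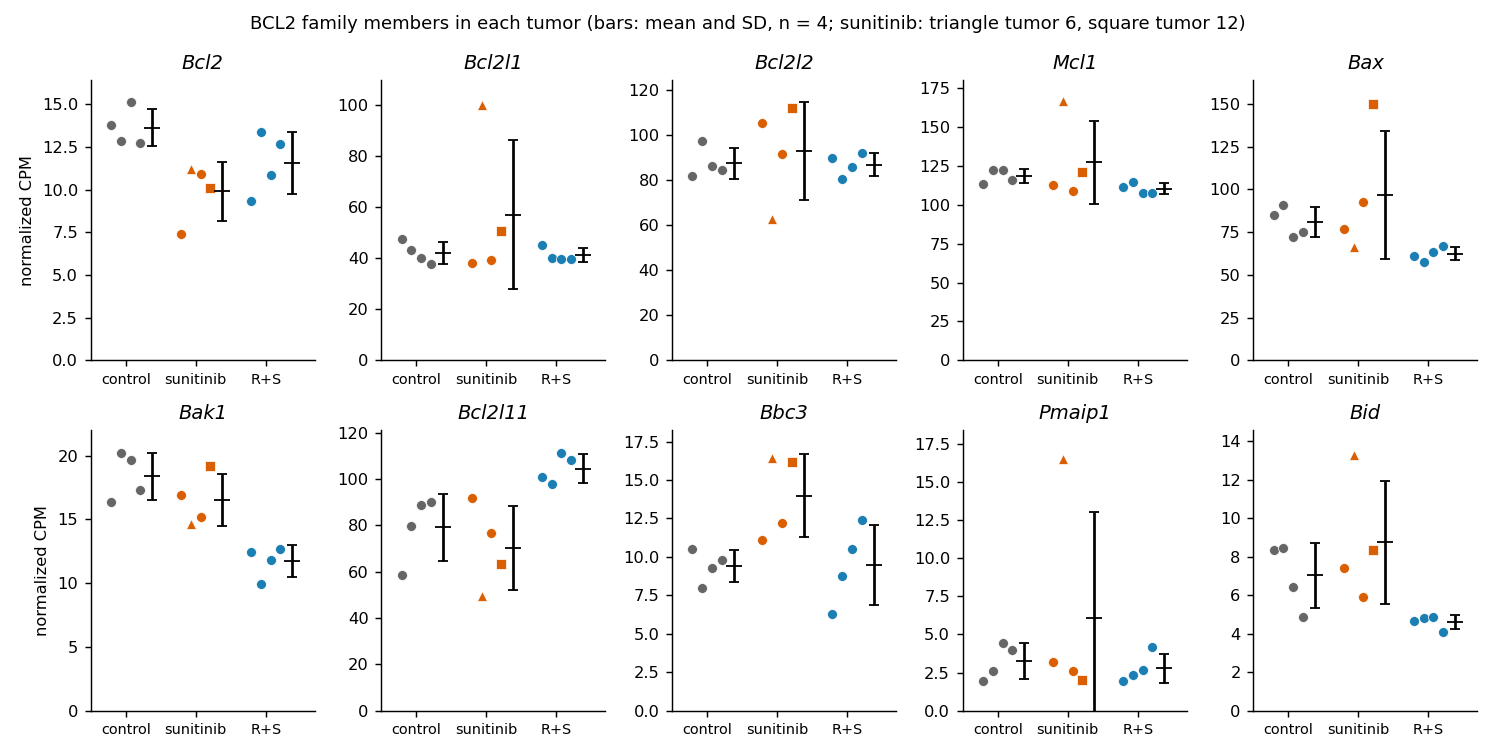
Normalized CPM of each member in every tumor, on linear axes from 0. Points are tumors, triangles and squares mark sunitinib tumors 6 and 12, and the bars give the mean and SD of 4 tumors; for *Pmaip1* in sunitinib the bar runs below 0 and is not drawn there. *Bak1* is lowest and *Bcl2l11* highest in the 4 R+S tumors, and tumor 6 holds the highest value of 5 members.

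*Bcl2l11* encodes BIM, a BH3-only protein that binds all anti-apoptotic members and whose gene is a known target of FOXO transcription factors, which growth factor signaling keeps out of the nucleus. The gene lies at chr2:128126038-128162547 on the plus strand. Its normalized CPM were 58.7, 79.7, 88.6 and 90.0 in control tumors 1 to 4. Sunitinib tumors 5, 6, 8 and 12 had 91.7, 49.4, 76.8 and 63.2. R+S tumors 4, 5, 7 and 10 had 101, 97.8, 111 and 108. All 4 R+S tumors lay above all other tumors. Its log2 fold change in R+S was 0.40 (SE 0.19, adjusted p = 0.254) against control and 0.57 (SE 0.19, adjusted p = 0.0745) against sunitinib, with an exact permutation p of 0.0286 for each, so that *Bcl2l11* did not pass the test across all genes.

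DESeq2 gave *Bcl2l11* an adjusted p of 0.0461 in R+S against sunitinib. At 8029 exonic bases *Bcl2l11* is among the long genes of the length skew, and with length skew in the model the log2 fold change was 0.35 (adjusted p = 0.443) against sunitinib and 0.29 (adjusted p = 0.419) against control. Sunitinib against control gave -0.17 (SE 0.19, adjusted p = 0.64).

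The R+S tumors lay above all control tumors for *Bcl2l11*, and below them for *Bax*, *Bak1* and *Bid*. Of these, the 250 bases before a transcription start are shown only for *Bcl2l11* (chr2:128125788-128126037, plus strand) and *Bax* (chr7:45466899-45467148, minus strand). They are 5′ to 3′ from RefSeq on GRCm38.p6, and capitals mark GC boxes, CCAAT boxes, the forkhead motif and the p53 half-site, each on either strand:
Bcl2l11: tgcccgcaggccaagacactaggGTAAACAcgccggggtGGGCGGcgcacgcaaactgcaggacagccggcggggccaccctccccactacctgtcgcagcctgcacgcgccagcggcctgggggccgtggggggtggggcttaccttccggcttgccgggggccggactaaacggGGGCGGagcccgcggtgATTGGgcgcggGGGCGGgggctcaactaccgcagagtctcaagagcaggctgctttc
Bax: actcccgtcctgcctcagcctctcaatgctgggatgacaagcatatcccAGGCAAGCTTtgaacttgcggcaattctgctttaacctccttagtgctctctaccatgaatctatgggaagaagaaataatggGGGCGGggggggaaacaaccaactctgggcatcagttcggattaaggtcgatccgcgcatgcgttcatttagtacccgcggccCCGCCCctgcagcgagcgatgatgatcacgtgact

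The GC box was searched as GGGCGG, the CCAAT box by the letters of its name and the forkhead motif as TGTTTAC. The *Bcl2l11* window holds 3 GC boxes, 1 CCAAT box and 1 forkhead match. The *Bax* window holds 2 GC boxes, 1 p53 half-site and 1 E-box (CACGTG), which is not capitalized. Among 32851 promoter windows of this length in the reference, 3.17% hold the forkhead motif, 7.13% the p53 half-site, 6.02% the E-box, which contains ACGTG, 32.7% a GC box and 33.8% a CCAAT box. Across all 14 windows available for 9 members, the forkhead motif was found for *Bcl2l11* and *Bbc3*, and the p53 half-site for *Bax*. The cores of the hypoxia response element were found for *Bax* and *Bbc3* (ACGTG, 16.6% of all promoters) and for *Bcl2l11*, *Bbc3* and *Bcl2l1* (GCGTG, 28.2%), while the E2F motif TTTCCCGC (0.895%) and the ATF4 element TGATGNAA (3.45%) had no match. The window of *Bak1*, the called member, held no match to any motif searched. These letters describe the windows and say nothing of binding in the tumors.

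*Bid* encodes the BH3-only protein that caspase-8 cleaves, which links death receptors to mitochondria, and lies at chr6:120891930-120916853 on the minus strand. Control tumors 1 to 4 had 8.36, 8.44, 6.44 and 4.88 normalized CPM. The sunitinib tumors had 7.43, 13.3, 5.91 and 8.34 in tumors 5, 6, 8 and 12. R+S tumors 4, 5, 7 and 10 had 4.66, 4.80, 4.87 and 4.11. The R+S tumors lay below all others, although the highest of them differed from control tumor 4 by less than the spread within either group (173 reads in control tumor 4 and 166 to 190 in R+S). Against sunitinib the log2 fold change was -0.92 (SE 0.27, adjusted p = 0.0581), and -0.65 without tumor 6, which had the highest value. Against control it was -0.61 (SE 0.27, adjusted p = 0.232). Sunitinib against control gave 0.31 (SE 0.27, adjusted p = 0.547), and 0.04 without tumor 6. *Bcl2l13* covers 17.7% of the exonic bases of *Bid* on the opposite strand.

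*Bbc3* encodes PUMA, a BH3-only protein known as a p53 target, and lies at chr7:16308393-16318205 on the plus strand. Control tumors 1 to 4 had 10.5, 7.99, 9.31 and 9.81 normalized CPM, and sunitinib tumors 5, 6, 8 and 12 had 11.1, 16.4, 12.2 and 16.2. In R+S tumors 4, 5, 7 and 10 the values were 6.27, 8.76, 10.5 and 12.4. Each sunitinib tumor lay above each control tumor, and the R+S tumors overlapped both groups. *Bbc3* differed in sunitinib by a log2 fold change of 0.57 (SE 0.22, adjusted p = 0.187), with an exact permutation p of 0.0286. It was 0.48 without tumor 6 and 0.49 without tumor 12. R+S against sunitinib gave -0.56 (SE 0.22, adjusted p = 0.123) and R+S against control 0.01 (SE 0.22, adjusted p = 0.985). At 2124 exonic bases *Bbc3* is among the short genes of the length skew, which was highest in sunitinib tumors 8 and 12.

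*Pmaip1* encodes NOXA, a BH3-only protein that binds MCL1 and is raised by p53 and by stress on the endoplasmic reticulum. It was the most variable member, with an SD of 0.84 in log2 CPM over the 12 tumors against a median of 0.62 for genes of like level, and 0.43 without sunitinib tumor 6. That tumor had 596 reads or 16.5 normalized CPM. The other sunitinib tumors had 3.16, 2.59 and 1.99 in tumors 5, 8 and 12, within the control values of 1.93, 2.62, 4.46 and 3.97, and R+S tumors 4, 5, 7 and 10 had 1.97, 2.35, 2.67 and 4.16. All groups overlapped. In sunitinib the log2 fold change was 0.90 (SE 0.62, adjusted p = 0.449) with tumor 6 and -0.33 without it, and that of R+S against sunitinib was -1.12 (SE 0.62, adjusted p = 0.241) with it and 0.11 without.

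*Bcl2*, the founding anti-apoptotic gene, lies at chr1:106538178-106714274 on the minus strand. Control tumors 1 to 4 had 13.8, 12.9, 15.1 and 12.7 normalized CPM, and sunitinib tumors 5, 6, 8 and 12 had 7.40, 11.2, 10.9 and 10.1. R+S tumors 4, 5, 7 and 10 had 9.35, 13.4, 10.9 and 12.7. All sunitinib tumors lay below all control tumors, and R+S overlapped both. The log2 fold change in sunitinib was -0.46 (SE 0.18, adjusted p = 0.181), with an exact permutation p of 0.0286. It was -0.53 without tumor 6, and ran from -0.53 to -0.33 with 1 tumor left out. For R+S it was -0.24 (SE 0.18, adjusted p = 0.49) against control and 0.22 (SE 0.18, adjusted p = 0.412) against sunitinib. At 9157 exonic bases *Bcl2* is among the long genes of the length skew.

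*Bcl2l1* (chr2:152780668-152831728, minus strand) had 47.5, 43.3, 40.0 and 37.7 normalized CPM in control tumors 1 to 4. Sunitinib tumors 5, 6, 8 and 12 had 38.1, 100.1, 39.5 and 50.9, and R+S tumors 4, 5, 7 and 10 had 45.2, 40.0, 39.8 and 39.8. Tumor 6 alone stood out, and the groups overlapped. The log2 fold change of sunitinib against control was 0.44 (SE 0.26, adjusted p = 0.38) with it and 0.02 without it, and the SD over all tumors in log2 CPM went from 0.39 to 0.14. R+S against control gave -0.03 (SE 0.26, adjusted p = 0.961).

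*Mcl1* (chr3:95658788-95663176, plus strand), whose short-lived protein restrains BAK and BIM, was the steadiest member. Its normalized CPM ran from 113 to 122 in control and from 107 to 115 in R+S tumors, and sunitinib tumors 5, 6, 8 and 12 had 113, 167, 109 and 121. Over the 12 tumors its SD in log2 CPM was 0.17, against a median of 0.28 for genes of like level. Apart from tumor 6, the 11 tumors had an SD of 0.07, where all genes, at any level, had a median of 0.36. The log2 fold changes were 0.10 (SE 0.13) for sunitinib against control, -0.10 (SE 0.13) for R+S against control and -0.21 (SE 0.13) for R+S against sunitinib, with adjusted p of 0.685, 0.70 and 0.293 by edgeR.

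*Bcl2l2* (chr14:54883377-54888234, plus strand) encodes BCL-W. It had 81.9 to 97.5 normalized CPM in control and 80.4 to 91.9 in R+S tumors, and 105, 62.7, 91.5 and 112 in sunitinib tumors 5, 6, 8 and 12. Tumor 6 was here the lowest of all 12. The log2 fold changes were 0.09 (SE 0.16), -0.01 (SE 0.16) and -0.10 (SE 0.16) for sunitinib against control, R+S against control and R+S against sunitinib. *Gm20521* covers 13.3% of its exonic bases on the same strand.

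The 4 anti-apoptotic genes together reached 62.4 to 68.5 normalized CPM per kilobase in control, 60.5 to 63.6 in R+S, and 65.7, 85.9, 62.2 and 72.6 in sunitinib tumors 5, 6, 8 and 12. Divided by the sum of the effectors, this gave 1.04 to 1.21 in control and 1.30 to 1.52 in R+S tumors. These did not overlap, as 23.5% of all genes taken singly did not. In sunitinib tumors 5, 6, 8 and 12 the ratio was 1.18, 1.78, 0.957 and 0.703, the widest range of the groups, with tumors 6 and 12 at its ends. The effector sum is mostly *Bax*, whose difference from control was -0.10 with length skew in the model, as given above.

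Sunitinib tumor 6 was the highest of all tumors in 5 members (*Bcl2l1*, *Mcl1*, *Bbc3*, *Pmaip1* and *Bid*) and the lowest in 2 (*Bcl2l2* and *Bcl2l11*). Tumor 12 was highest in *Bax* and *Bcl2l2*.

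**Figure D4:**
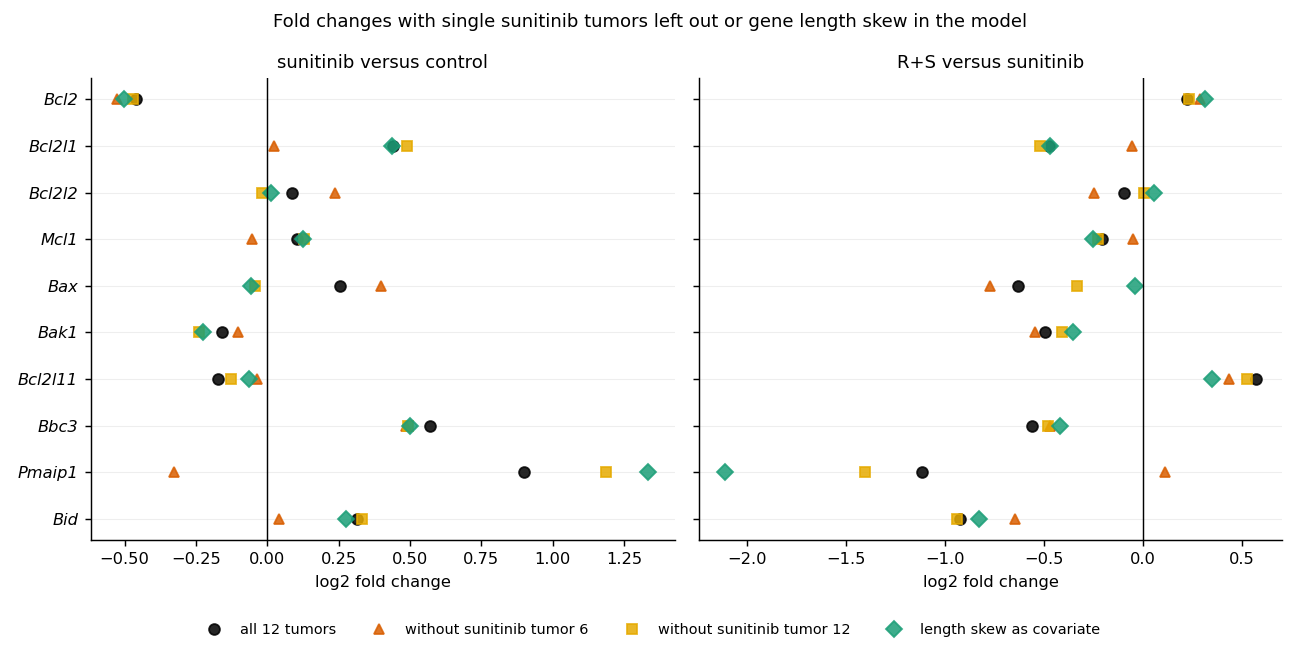
Log2 fold change of each member for sunitinib against control (left) and R+S against sunitinib (right), with all 12 tumors, without sunitinib tumor 6, without tumor 12 and with each tumor's length skew as a covariate. Leaving out tumor 6 moves *Pmaip1* from 0.90 to -0.33 and *Bcl2l1* from 0.44 to 0.02 on the left, and length skew moves *Bax* from -0.63 to -0.04 on the right.

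Of 15 further family genes listed, 13 had a counted identifier and 11 passed the filter on low counts. *Bcl2l10*, with at most 2 reads in a tumor, and *Bcl2l14*, with 2 to 21 reads, did not. For sunitinib against control 1 of the 11 was called higher by edgeR, beside 1.93% of all genes, and 3 had an unadjusted p under 0.05, beside 19.5%. The called gene was *Bnip3*, which encodes a mitochondrial protein of mitophagy and is known as a target of hypoxia. It had 29.1, 27.8, 16.9 and 18.7 normalized CPM in control tumors 1 to 4 and 86.3, 165, 27.5 and 116 in sunitinib tumors 5, 6, 8 and 12, so that tumor 8 stayed within the control range. The log2 fold change was 2.09 (SE 0.46, adjusted p = 0.0247 in edgeR), and the call was lost in 8 of 19 alternatives. The adjusted p was 0.0583 without sunitinib tumor 12, 0.055, 0.0906 and 0.0872 without control tumor 2, 3 or 4, 0.0622 with length skew in the model, 0.0706 in the fit of 8 tumors and 0.192 without sunitinib tumors 6 and 12, and no gene was called with the acinar covariate. In R+S tumors *Bnip3* had 61.4, 66.0, 54.3 and 25.9 normalized CPM (log2 fold change 1.17, SE 0.45, adjusted p = 0.175). Its relative *Bnip3l* had 61.7 to 75.0 normalized CPM in control, 65.0 to 157 in sunitinib and 84.1 to 110 in R+S tumors, the last of which did not overlap control (log2 fold change 0.57, SE 0.22, adjusted p = 0.167). For *Bnip3*, 47.2% of its 50-base words also occur in other genes, so its level is uncertain.

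None of the 11 was called by edgeR in R+S against control, beside 4.16% of all genes, and 5 had an unadjusted p under 0.05, beside 20.1%. In R+S against sunitinib 1 was called lower, beside 4.58% of all genes, and 4 had an unadjusted p under 0.05, beside 30.4%. The called gene was *Bad*, a BH3-only gene whose protein is held inactive by phosphorylation downstream of growth factor signals. *Bad* had 21.2, 19.1, 17.2 and 15.6 normalized CPM in control tumors 1 to 4 and 17.0, 23.3, 22.0 and 27.7 in sunitinib tumors 5, 6, 8 and 12. In R+S tumors 4, 5, 7 and 10 it had 14.5, 14.7, 13.7 and 13.9, below all others. The log2 fold change against sunitinib was -0.66 (SE 0.16, adjusted p = 0.0352 by edgeR), with an adjusted p of 0.0542 and 0.0613 without sunitinib tumor 8 or 12, 0.0745 to 0.104 without any 1 of the R+S tumors and 0.272 with length skew in the model. *Bok*, an effector relative of *Bax*, set the sunitinib tumors apart without passing. They had 12.0, 21.7, 14.1 and 22.9 normalized CPM, above 9.65 to 10.96 in control and 5.23 to 10.9 in R+S tumors, which overlapped. Of all genes, 5.17% lay wholly higher in sunitinib than in control, and 9.73% wholly lower in R+S than in sunitinib. In R+S against sunitinib the log2 fold change of *Bok* was -0.92 (SE 0.27, adjusted p = 0.0575 by edgeR). At 1840 exonic bases *Bok* is among the short genes of the length skew.

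The BH3-only genes *Bmf*, *Bik* and *Hrk* were not called. *Bmf* had 5.29 to 7.91 normalized CPM in control, 4.59 to 11.8 in sunitinib and 7.37 to 11.9 in R+S tumors, and *Bik* 6.11 to 11.2, 2.71 to 18.2 and 4.47 to 16.3. *Hrk* was measured on 6 to 53 reads a tumor, with a log2 fold change of -1.40 (SE 0.48, adjusted p = 0.129) in R+S against control. *Bcl2l13* ran from 61.2 to 93.4 normalized CPM over all tumors. *Bcl2l12* had at most 3.61 normalized CPM, *Bcl2a1b* at most 2.12 with 79.2% of its 50-base words shared with its copies, and *Bcl2l15* at most 20 reads.

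Downstream of the pores, 17 genes of the apoptosome, caspases and their inhibitors were listed and tested. None was called by edgeR in sunitinib against control, beside 4.48% of all genes, and 3 had an unadjusted p under 0.05, beside 19.5%. In R+S 1 was called against control and 2 against sunitinib, all lower, beside 2.61% and 4.58% of all genes. *Birc5*, whose product survivin serves mitosis and is grouped with the inhibitors of apoptosis, fell in R+S: it had 74.3 to 104 normalized CPM in control, 62.4 to 80.4 in sunitinib and 33.4 to 55.2 in R+S tumors. Its log2 fold change was -1.07 (SE 0.18, adjusted p = 0.0059) against control and -0.86 (SE 0.18, adjusted p = 0.0277) against sunitinib. *Htra2*, which encodes a mitochondrial protease released with cytochrome c, fell against sunitinib (log2 fold change -0.70, SE 0.12, adjusted p = 0.0233 by edgeR), with 35.3 to 48.8 normalized CPM in sunitinib and 26.3 to 27.2 in R+S tumors. Control tumors lay at 29.6 to 33.6. The list's median log2 fold changes were 0.03, -0.01 and -0.09 in the 3 comparisons, beside 0.03, 0.01 and -0.02 over all genes.

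Of 11 genes of the death receptor route, 1 was called in sunitinib against control and 1 in R+S against sunitinib, beside 4.48% and 7.21% of all genes. *Tnfsf10*, the ligand TRAIL, fell in sunitinib from 11.03 to 16.6 normalized CPM in control to 0.93 to 5.25 (log2 fold change -2.25, SE 0.43, adjusted p = 0.00985). R+S tumors had 3.05 to 5.91 and no call for any of the 11. The endothelial markers fell in the same tumors, and the part of cell content in *Tnfsf10* was not tested. *Cflar*, which encodes the caspase-8 inhibitor FLIP, rose in R+S against sunitinib (log2 fold change 0.72, SE 0.15, adjusted p = 0.027 by edgeR), at 64.5 to 71.7 against 34.0 to 55.2 normalized CPM. Control tumors lay at 49.8 to 62.5.

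Of 15 p53 target genes outside the family, 0 were called by edgeR against control in either treated group, beside 4.48% of all genes in sunitinib and 4.16% in R+S. At an unadjusted p under 0.05 there were 3 in sunitinib and 4 in R+S, beside 19.5% and 20.1% of all genes. In R+S against sunitinib 1 was called, beside 7.21%. *Sesn1*, an inhibitor of mTOR signaling, rose in R+S against sunitinib (log2 fold change 0.65, SE 0.14, adjusted p = 0.0277), at 63.4 to 87.2 against 44.2 to 53.2 normalized CPM, while control tumors had 54.5 to 76.2. Among 13 regulators upstream of the BH3-only genes, 1 was called in sunitinib against control, 0 in R+S against control (3 at an unadjusted p under 0.05) and 3 in R+S against sunitinib, beside 4.48%, 4.16% and 7.21% of all genes. *Atf3*, a stress-induced transcription factor, rose in sunitinib to 9.08 to 20.9 normalized CPM from 5.13 to 6.92 in control (log2 fold change 1.16, SE 0.27, adjusted p = 0.0311). This call was lost in 8 of 19 alternatives, with an adjusted p of 0.059 to 0.0951 without any 1 of the control tumors, 0.0605 with length skew in the model, 0.117 in the fit of 8 tumors and 0.0894 without sunitinib tumors 6 and 12. *Atf3* was lower in R+S than in sunitinib (log2 fold change -1.02, SE 0.27, adjusted p = 0.0433). *Atf4* and its target *Ddit3*, which encodes CHOP, fell in the same comparison by 0.92 (SE 0.15, adjusted p = 0.0233 by edgeR) and 1.18 (SE 0.28, adjusted p = 0.0346) on the log2 scale. *Atf4* had 193 to 213 normalized CPM in R+S, 334 to 468 in sunitinib and 245 to 383 in control tumors. *Ddit3* had 24.2 to 41.4 in R+S, 64.0 to 84.7 in sunitinib and 35.1 to 82.2 in control tumors. With length skew in the model, none of the calls between R+S and sunitinib in these lists, *Bad* included, remained, with adjusted p of 0.138 to 0.272, nor did any in the fit of those 8 tumors alone. Without R+S tumor 4, 5 or 7 their adjusted p was 0.0623 to 0.126.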

How the data were processed

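RNA from 12 tumors had been sequenced from stranded mRNA libraries. Per the labels and the submitters' processing notes, reads were trimmed with cutadapt 1.2.1 and aligned with TopHat2 2.0.9 to GRCm38, and the authors deposited raw counts of reads per Ensembl gene from HTSeq 0.5.4p3. The strand setting of the counting is not given in the sources used here. The lines that name no gene (reads on no feature, ambiguous or not uniquely aligned), 43.9% to 58.7% of a tumor's total, were left out. Symbols, lengths and coordinates are from GENCODE M21 (37607 of 38924 identifiers matched). Depth was 31872342 to 44215054 reads per tumor, so members with under 100 reads, such as *Pmaip1* in some tumors, are the least precise; intervals from reads would cover counting error only.

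Counts were filtered (filterByExpr, minimum count 10, minimum total 15), scaled by TMM and fitted in edgeR 4.0.16 (R 4.3.3, limma 3.58.1) with its quasi-likelihood test and robust estimation, all 12 tumors in 1 fit, and Benjamini-Hochberg adjustment over 16645 genes within each comparison. DESeq2 1.42.0 was an alternative. Single members were also tested on log2 CPM (prior count 2) by exact permutation of the tumors, two-sided and unadjusted, over 30 comparisons. The fit was also run on simulated counts drawn independently for each tumor. The simulation held no length skew, shared mice or outlying tumor, so it cannot test their effect on the calls. Groups follow the labels. Every pair of replicates differed by more than sampling noise. The members and gene lists were chosen with earlier results of these data known. All members and the tested family genes are named, and of each other list at most the 4 called genes per comparison with the smallest adjusted p. Alternatives were library-size, upper-quartile and size-factor scaling, other filters, only the 8 tumors compared, an acinar covariate, treated tumors with 1 label prefix summed, calls limited to an absolute log2 fold change of at least 1, and leaving out single tumors. The control tumors, which all carry the same prefix, were not summed. Length skew as a covariate and leaving out sunitinib tumors 6 and 12 together were chosen after seeing the data.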

Additional observations from a re-analysis of the deposited data

Results flagged for a closer look

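Dixon's test of the highest or lowest tumor in each group of 4 was applied on the log2 CPM scale to the 30 combinations of member and group, of which chance flags about 1 in 20. It flagged *Bcl2l1* in R+S, where tumor 4 with 45.2 normalized CPM stood apart from the other 3 at 39.8 to 40.0 (gap over range 0.963, above the critical value for 4). The value lies within the control range of 37.7 to 47.5. *Pmaip1* in sunitinib tumor 6 was not flagged on the log2 scale.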

How the results depend on the processing

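Alternatives gave 570 fold changes of members, of which 514 kept their direction and side of the threshold, and 14 of the 30 member comparisons never changed sign. No paired analysis was possible because no pair of groups shares 2 replicate numbers in the labels. Label prefixes never occur in more than 1 group, so prefix and treatment cannot be told apart. Summing by prefix was applied to treated tumors only, and the control tumors stayed separate.

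In R+S against control, the 1 member called became 0 with no filter, with the acinar covariate, with prefixes summed and with a minimum log2 fold change of 1, 2 (*Bak1* and *Bax*) in the fit of 8 tumors and without sunitinib tumors 6 and 12, and 0 to 1 with 1 tumor left out. In R+S against sunitinib, 0 became 2 with at least 10 counts in every tumor, 4 with DESeq2, and 0 to 3 with 1 tumor left out (3 without sunitinib tumor 5, 2 without tumor 6, 1 without tumor 8). Sunitinib against control stayed at 0.

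Over all genes, sunitinib against control went from 745 calls to 408 with at least 10 counts in every tumor, 380 with 8 tumors, 0 with the acinar covariate, 1513 with DESeq2 and 440 to 902 with 1 tumor left out. R+S against control went from 693 to 2557 with 8 tumors, 0 with the acinar covariate, 2597 without sunitinib tumors 6 and 12, 1659 with DESeq2, 458 with a minimum log2 fold change of 1 and 292 to 1627 with 1 tumor left out. R+S against sunitinib went from 1200 to 501 with no filter, 3 with 8 tumors, 217 with the acinar covariate, 0 with length skew, 198 without sunitinib tumors 6 and 12, 2972 with DESeq2, 408 with a minimum log2 fold change of 1 and 0 to 2861 with 1 tumor left out.

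Signs turned as follows, and the cause was not tested. For sunitinib against control the acinar covariate gave -0.47 for *Bcl2l1*, 0.63 for *Bak1*, 0.99 for *Bcl2l11*, -0.15 for *Pmaip1* and -0.30 for *Bid*; leaving out sunitinib tumors 6 and 12 gave -0.12 for *Bcl2l1*, -0.094 for *Mcl1*, 0.089 for *Bcl2l11*, -0.17 for *Pmaip1* and -0.076 for *Bid*, and length skew -0.056 for *Bax*. With 1 tumor left out the ranges were -0.017 to 0.24 for *Bcl2l2*, -0.052 to 0.17 for *Mcl1*, -0.042 to 0.40 for *Bax* and -0.33 to 1.19 for *Pmaip1*. For R+S against control the acinar covariate gave 0.58 for *Bcl2l2*, 0.17 for *Bax*, 0.022 for *Bak1* and -0.37 for *Bbc3*. *Bcl2l2* turned to 0.0076 with prefixes summed and 0.068 with length skew, and *Bbc3* to -0.033 with library-size scaling, -0.015 with upper-quartile scaling and -0.0027 with prefixes summed. With 1 tumor left out the ranges were -0.082 to 0.030 for *Bcl2l1*, -0.040 to 0.047 for *Bcl2l2* and -0.14 to 0.17 for *Bbc3*. For R+S against sunitinib, *Bcl2l1* turned to 0.087 without sunitinib tumors 6 and 12 and *Bcl2l2* to 0.056 with length skew, and with 1 tumor left out *Bcl2l2* ranged over -0.24 to 0.0085 and *Pmaip1* from -1.40 to 0.11. A prior count of 0.5 changed none of the 30 exact tests.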
